A study of Mus musculus with 47 samples.

Results

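The levels of 10 long noncoding RNAs that are abundant in neurons or come from imprinted loci were followed through the hippocampus of young and old male mice given vehicle or platelet factor 4 (PF4), a chemokine released by platelets. The genes were taken by symbol as Malat1, Neat1, Miat, Meg3, Rian, Mirg, Snhg11, Snhg14, Kcnq1ot1 and Peg13, and all 10 were found among the 35486 genes of the hippocampus count table. All 10 also passed the filter on low counts, so each was among the 17778 genes tested. The 47 libraries were 13 Young Veh (vehicle, 3.75 to 5.26 months), 12 Young PF4 (PF4, 4.08 to 5.03 months), 12 Old Veh (vehicle, 17.47 to 19.97 months) and 10 Old PF4 (PF4, 17.4 to 20.23 months). All mice were C57BL/6J males, and vehicle or mouse PF4 was injected daily into the peritoneum. No label named the animal of a library, so the p-values measure the spread between libraries. The libraries were unstranded, and each came from whole hippocampus, in which fewer cells of a type and less RNA per cell cannot be told apart.

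Long noncoding RNAs act as transcripts without being translated, and many stay in the nucleus. Malat1 lies in nuclear speckles, bodies that hold splicing factors, while Neat1 is the scaffold around which paraspeckles form. Miat, also called Gomafu, is a neuronal nuclear RNA with repeats bound by splicing factors. Meg3, Rian and Mirg are made from the maternal copy of the Dlk1-Dio3 domain, where Rian and Mirg are hosts of small nucleolar RNAs and microRNAs. Snhg14 is read from the paternal copy of the Prader-Willi and Angelman region, carries clusters of small nucleolar RNAs, and in neurons runs through Ube3a from the opposite strand and silences the paternal Ube3a. Kcnq1ot1 is the paternal antisense RNA within Kcnq1 that silences neighbouring genes in cis. Peg13 is a paternal RNA inside an intron of Trappc9, and Snhg11 is a neuron-rich host gene of small nucleolar RNAs.

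In the GRCm38 annotation (GENCODE M21), Malat1 (ENSMUSG00000092341.3, chromosome 19, 5795690 to 5802672, minus strand) and Neat1 (ENSMUSG00000092274.3, chromosome 19, 5824708 to 5845478, minus strand) stand 22035 bases apart. Each is covered by 1 merged exon, of 6983 bases in Malat1 and 20771 bases in Neat1. Meg3 (chromosome 12, 109541001 to 109571726), Rian (109603940 to 109661716) and Mirg (109729764 to 109749460) follow each other on the plus strand of 1 domain. Rian spans 13 annotated small nucleolar RNA genes and 4 microRNA genes on its strand, and Mirg spans 14 microRNA genes. Snhg14 (chromosome 7, 59307924 to 59975759, minus strand) had 65 merged exons and spans 208 small nucleolar RNA genes. Kcnq1ot1 (chromosome 7, 143203458 to 143296549, minus strand) is 1 exon of 93092 bases. Miat (chromosome 5, 112213228 to 112229395, minus strand), Snhg11 (chromosome 2, 158375638 to 158386145, plus strand, typed as protein coding in this annotation) and Peg13 (chromosome 15, 72805600 to 72810324, minus strand) complete the set.

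The ends of Malat1 and Neat1 are shown because the libraries were made with Smart-Seq2, a full-length cDNA method primed with oligo-dT, while Malat1 and the long form of Neat1 carry no ordinary poly(A) tail. Both are known to be cut at the 3′ end by RNase P, leaving an end that folds into a triple helix from stretches rich in U and in A. The 120 bases up to that end are given as DNA from the GENCODE transcripts, with the U-rich stretch TTTTGCTTTT and the A-rich end AAAAAGCAAAA in capitals, at chr19:5795982-5796101 for Malat1 and chr19:5824708-5824827 for Neat1, both on the minus strand of GRCm38.
Malat1: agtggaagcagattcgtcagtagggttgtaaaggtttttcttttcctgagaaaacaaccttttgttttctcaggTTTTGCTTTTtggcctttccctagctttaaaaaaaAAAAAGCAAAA
Neat1: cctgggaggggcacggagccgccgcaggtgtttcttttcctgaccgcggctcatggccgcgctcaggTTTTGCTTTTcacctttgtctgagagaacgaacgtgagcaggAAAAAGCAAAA
Searched on the transcript strand, the A-rich end was found in 1.13% of the 42587 GENCODE transcripts of 2000 bases or more, the U-rich stretch in 2.7% and both in 0.054%.

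Miat is shown for its ACTAAC repeats, which resemble the branch point of introns. Its longest transcript holds 11 of them on its own strand, a number that 0.0329% of transcripts of 2000 bases or more reach, and 4 fall within 155 bases of its last exon (exon 7 of 7, chr5:112217302-112217456, minus strand, repeats in capitals).
Miat: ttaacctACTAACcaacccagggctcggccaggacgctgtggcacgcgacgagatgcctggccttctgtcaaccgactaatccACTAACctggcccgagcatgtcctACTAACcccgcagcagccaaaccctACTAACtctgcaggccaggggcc

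Snhg14 and Kcnq1ot1 moved together between libraries, as described further on, so the RefSeq promoters of both (250 bases before to 50 after the start, GRCm38.p6) are given with CCAAT boxes on either strand (CCAAT or ATTGG) in capitals. The Kcnq1ot1 promoter is at chr7:143296498-143296797 and the Snhg14 promoter at chr7:60450128-60450427, both on the minus strand. The latter lies far upstream of the GENCODE gene model, which starts at 59975759 on that strand. Whether the transcripts counted as Snhg14 start at this promoter was not tested.
Kcnq1ot1: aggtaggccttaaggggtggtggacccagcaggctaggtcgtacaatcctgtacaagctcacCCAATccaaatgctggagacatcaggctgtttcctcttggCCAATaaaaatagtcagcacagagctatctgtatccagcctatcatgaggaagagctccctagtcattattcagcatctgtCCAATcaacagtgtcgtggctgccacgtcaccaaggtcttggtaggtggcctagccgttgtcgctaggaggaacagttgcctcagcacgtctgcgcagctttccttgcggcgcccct
Snhg14: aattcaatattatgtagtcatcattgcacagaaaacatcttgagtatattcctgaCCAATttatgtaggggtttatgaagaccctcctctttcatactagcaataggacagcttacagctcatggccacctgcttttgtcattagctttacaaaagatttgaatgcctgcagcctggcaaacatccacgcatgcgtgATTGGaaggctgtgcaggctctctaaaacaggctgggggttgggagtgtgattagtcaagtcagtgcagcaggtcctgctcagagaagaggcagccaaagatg
Kcnq1ot1 holds 3 such boxes and Snhg14 holds 2. Of 32851 RefSeq promoters, 37.4% hold at least 1 and 3.37% hold 3 or more. The share that holds 2 or more was not taken. Of the other members, Mirg holds 1, Meg3 1 or 0 by promoter, and Rian, Miat, Snhg11 and Malat1 hold 0. RefSeq promoters were found for 8 of the 10 genes.

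The libraries held 2242879 to 21112908 reads assigned to genes (median 10374007), and 8 of the 47 held fewer than 5000000, of which 4 were Old Veh, 1 Young Veh, 2 Young PF4 and 1 Old PF4. These 8 are the first 8 columns of the count table, ahead of the others, and the sources do not say why. The sample numbers in the labels ran from 1 to 23 in old mice and from 24 to 48 in young mice, so their order and age cannot be told apart. In old mice they ran from 1 to 12 in Old Veh and from 13 to 23 in Old PF4, so order and treatment cannot be told apart there. Neuron, astrocyte, oligodendrocyte, microglia and endothelial markers were all detected in every library. The summed level of 10 choroid plexus markers, a tissue that lines the adjoining ventricle, ran from 12.0 to 4254 reads per 1000000 assigned reads (CPM) in Young Veh and from 15.04 to 4252 CPM in Old Veh, with medians of 1940.0 and 47.04 CPM. With the 10 members counted together, they took 0.679% to 0.948% of the reads of a library.

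The 10 RNAs spanned more than 2 orders of magnitude in level. Compared per kilobase of merged exon, Malat1 was the most abundant at 418 ± 58.9 CPM per kilobase (SD, n = 47), followed by Snhg11 at 255 ± 25.7 and Meg3 at 131 ± 11.5. Peg13 followed at 35.8 ± 3.28 and Miat at 10.5 ± 1.04 CPM per kilobase. In each of the 47 libraries Malat1 was above Snhg11, Snhg11 above Meg3, Meg3 above Peg13 and Peg13 above Miat.

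The lower part of that order was less separated. Rian, at 5.82 ± 0.784 CPM per kilobase, and Snhg14, at 5.68 ± 0.739, did not differ beyond their spread, with Rian the higher in 24 of 47 libraries. Neat1 followed at 4.48 ± 1.22, Kcnq1ot1 at 2.36 ± 0.270 and Mirg at 1.91 ± 0.328 CPM per kilobase. Snhg14 was above Neat1 in 42 of 47 libraries and Kcnq1ot1 above Mirg in 43. The merged exon length sets these values, and in Snhg14 and Rian it is 3.8 and 2.25 times the length of the longest annotated transcript. Taken over the longest transcript, Snhg14 was at 21.6 ± 2.81 and Rian at 13.1 ± 1.77 CPM per kilobase, both above Miat at 10.7 ± 1.05, and Mirg at 3.65 ± 0.626 was above Kcnq1ot1, so the lower part of the order depends on the length used. The order of Malat1, Snhg11, Meg3 and Peg13 was the same with either length. In Neat1 a read of the short form was divided by the length of the long form. Before length was taken into account, Malat1 ranked 9, Meg3 16 and Snhg11 20 of 17778 genes by mean CPM, counted from the highest.

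**Figure D1:**
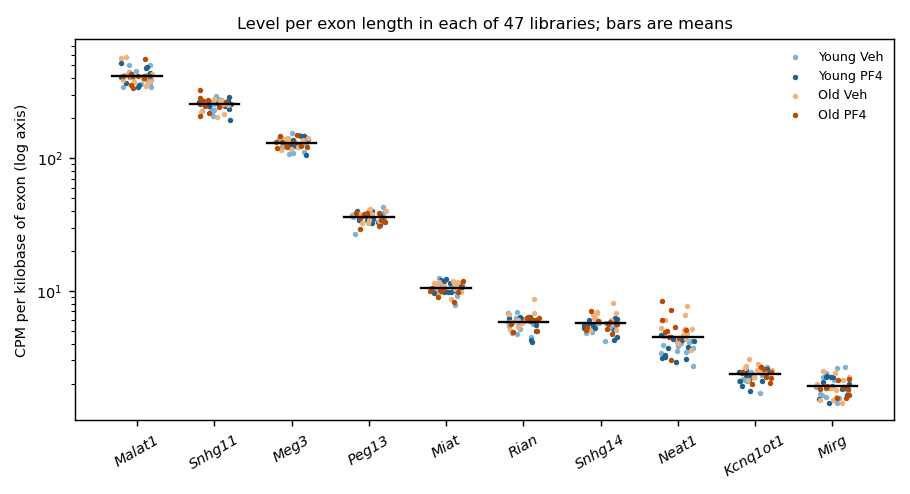
Level of each RNA per kilobase of merged exon (CPM per kilobase, log axis) in each of the 47 libraries, coloured by group, with bars at the means. Malat1, Snhg11 and Meg3 lie above 100 CPM per kilobase and Mirg lies lowest at a mean of 1.91.

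Neat1, the paraspeckle scaffold, was higher in old than in young mice under both treatments. Its level in Young Veh ran from 56.2 CPM over a median of 80.1 to 94.7 CPM, and in Old Veh from 74.4 over 106 to 159 CPM. Old Veh exceeded the highest Young Veh library in 9 of 12 libraries, and the groups overlapped. In Young PF4 Neat1 ran from 60.2 CPM over a median of 77.9 to 97.0 CPM, and in Old PF4 from 62.4 over 105 to 174 CPM. Here 7 of 10 old libraries were above every young one, and 9 of 10 were above the Young PF4 median.

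Neat1 rose 1.36-fold with age in vehicle-treated mice, a log2 fold change of 0.45 (SE 0.109, 95% interval 0.23 to 0.67, adjusted p = 0.0122, edgeR quasi-likelihood test with Benjamini-Hochberg adjustment over all genes tested). In PF4-treated mice, which share no library with the first comparison, it rose 1.45-fold, by 0.53 on the log2 scale (SE 0.117, 95% interval 0.30 to 0.77, edgeR adjusted p = 0.0177). Without the 8 libraries under 5000000 reads the rise in vehicle-treated mice was 0.39 and no longer passed (edgeR adjusted p = 0.131), whereas that in PF4-treated mice was 0.57 and passed (edgeR adjusted p = 0.0359). With these 8 libraries kept and marked by a term in the model, the rises were 0.41 (edgeR adjusted p = 0.0400) and 0.54 (edgeR adjusted p = 0.0134). In turn, the call in PF4-treated mice was lost when these 2 groups were fitted alone (0.53, edgeR adjusted p = 0.0887) or when Old PF4 replicate 2 (0.48), Old PF4 replicate 3 (0.44) or Young PF4 replicate 11 (0.50) was left out, with edgeR adjusted p of 0.0674, 0.0733 and 0.0524.

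Snhg14, the Ube3a antisense host RNA, was higher in Old Veh than in Young Veh. Young Veh libraries ran from 109 CPM over a median of 146 to 152 CPM, and Old Veh libraries from 132 over 163 to 210 CPM. Old Veh lay above every Young Veh library in 10 of 12 libraries, and the other 2 fell within the young range. The rise was 1.18-fold, a log2 fold change of 0.24 (SE 0.0634, 95% interval 0.11 to 0.36, edgeR adjusted p = 0.0274). Without the libraries under 5000000 reads it was 0.19 and did not pass (edgeR adjusted p = 0.186), nor did it pass with those libraries marked by a term (0.19, edgeR adjusted p = 0.0890). The call was also lost in 5 of 25 sets that left out 1 library, namely Old Veh replicate 3 (0.23), 6 (0.23), 7 (0.23) or 8 (0.21) or Young Veh replicate 4 (0.21), with edgeR adjusted p from 0.0523 to 0.0647.

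In PF4-treated mice Snhg14 ran from 111 CPM over a median of 143 to 164 CPM in Young PF4, and from 123 over 147 to 184 CPM in Old PF4. The groups overlapped nearly throughout, with 1 of 10 Old PF4 libraries above every Young PF4 library, and the log2 difference was 0.03 (95% interval -0.10 to 0.17, edgeR adjusted p = 0.953). The test of the difference between the age effects, which is the same contrast as the difference between the PF4 effects, gave -0.20 (SE 0.0930, 95% interval -0.39 to -0.02, p = 0.0333 and edgeR adjusted p = 1.0). With the length index described further on as a covariate that difference was -0.10 (SE 0.0710). The age effect on Snhg14 was therefore not shown to differ between treatments over all genes tested.

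**Figure D2:**
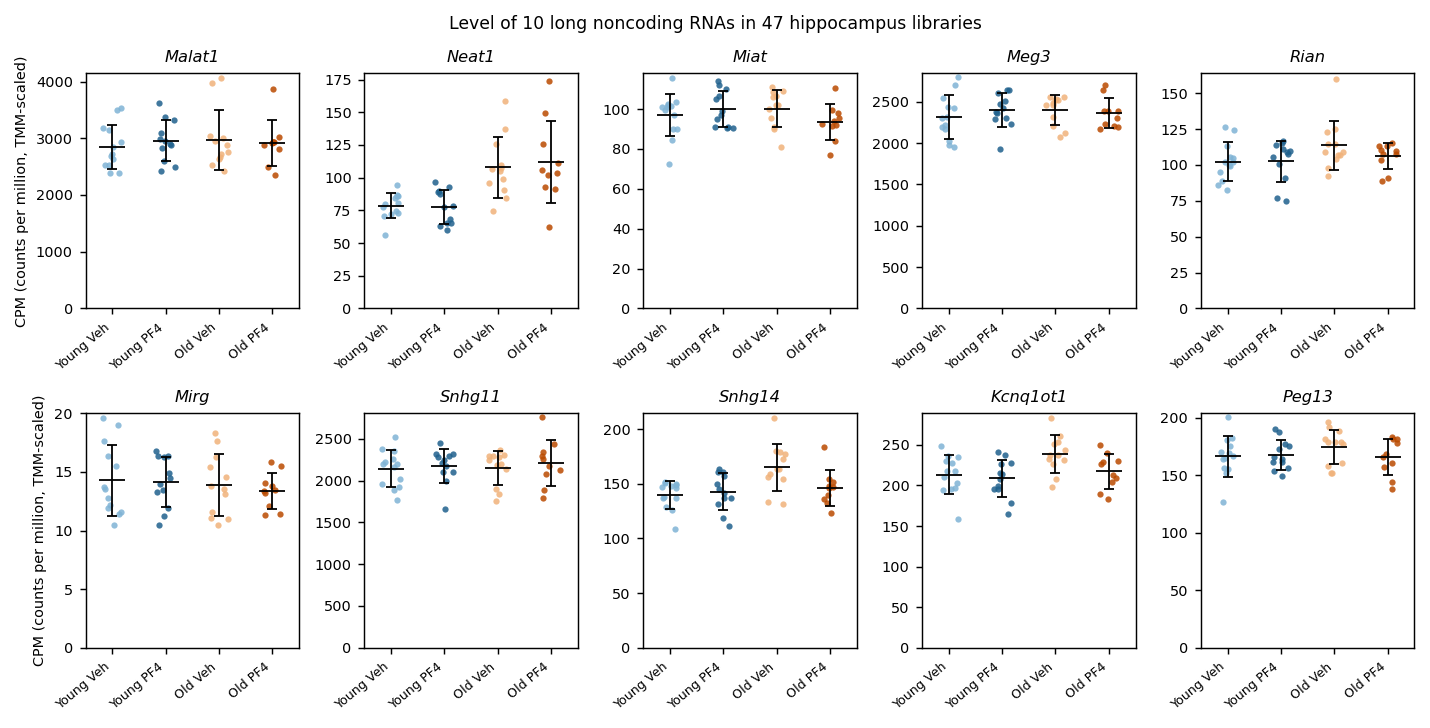
Level of the 10 RNAs in CPM (linear axes from 0), 1 point for each library by group, with black bars at the mean and SD. Neat1 lies higher in Old Veh and Old PF4 than in the young groups, with 9 of 12 Old Veh libraries above every Young Veh library, and Snhg14 lies highest in Old Veh.

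Among the 10 genes, Neat1 and Snhg14 made up the 2 calls between Old Veh and Young Veh, both higher, beside 2.77% of all genes tested being called and 2.16% called higher. The median log2 fold change was 0.06 over the 10 and -0.01 over all genes. Between Old PF4 and Young PF4, Neat1 was the 1 call of 10, beside 0.332% of genes called and 0.304% called higher, and the median over the 10 was 0.00.

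Kcnq1ot1 and Rian had positive values between the ages in vehicle-treated mice that did not pass the test. For Kcnq1ot1, Young Veh ran from 159 CPM over 218 to 249 CPM and Old Veh from 198 over 238 to 284 CPM. Of the 12 Old Veh libraries 4 were above every Young Veh library, with a log2 difference of 0.16 (95% interval 0.04 to 0.28, edgeR adjusted p = 0.149). For Rian, Young Veh ran from 82.4 CPM over 102 to 127 CPM and Old Veh from 92.5 over 109 to 160 CPM. The log2 difference of 0.15 (95% interval 0.01 to 0.30, edgeR adjusted p = 0.306) came with 1 old library above the young range. In PF4-treated mice the same differences were 0.06 for Kcnq1ot1 and 0.04 for Rian. With the length index as a covariate the vehicle differences were 0.10 for Kcnq1ot1 and 0.09 for Rian.

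The most abundant members differed little with age. Malat1 ran from 2390 to 3537 CPM in Young Veh and from 2423 to 4061 CPM in Old Veh, and its log2 difference was 0.06 (95% interval -0.10 to 0.22). Meg3, the first RNA of the Dlk1-Dio3 domain, ran from 1953 to 2803 CPM and from 2070.4 to 2564 CPM, with a log2 difference of 0.05 (-0.05 to 0.16). Snhg11 ran from 1767 to 2521 CPM and from 1756 to 2361 CPM, with a log2 difference of 0.01 (-0.11 to 0.13). Over all 47 libraries Miat ran from 72.7 to 116 CPM, Peg13 from 127 to 201 CPM and Mirg from 10.4 to 19.6 CPM, with every group overlapping every other. For Miat the log2 difference was 0.05 (-0.06 to 0.16), for Peg13 it was 0.07 (-0.04 to 0.18) and for Mirg -0.04 (-0.24 to 0.15). The intervals of Meg3, Miat, Snhg11 and Peg13 held no value beyond 0.18 in either direction on the log2 scale, while those of Malat1 and Mirg were wider.

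PF4 gave no call among the 10 RNAs in old or in young mice. Between Old PF4 and Old Veh, where 0.0337% of genes were called, the members' log2 differences ran from -0.17 in Snhg14 to 0.06 in Neat1, with a median of -0.05 beside 0.01 over all genes. Snhg14 in Old PF4 had 9 of its 10 libraries at or below the Old Veh median, and its difference had a 95% interval of -0.31 to -0.04 (p = 0.0135, edgeR adjusted p = 0.636). Kcnq1ot1 was at -0.13 (95% interval -0.26 to -0.01, p = 0.0412, edgeR adjusted p = 0.792). With the length index as a covariate these values were -0.09 for Snhg14 and -0.06 for Kcnq1ot1. These comparisons use the same Old Veh libraries as the age comparison, so neither stands apart from the other. The order of the sample numbers and PF4 cannot be told apart in them either. Neat1 was at 0.06 (95% interval -0.17 to 0.29), and Malat1 at -0.03 (-0.19 to 0.14).

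Between Young PF4 and Young Veh, edgeR called 0 of 17778 genes (0%). Before adjustment 213 (1.2%) reached p below 0.05, under the share of 0.05 that no effect would give. DESeq2 likewise called 0. The members' differences ran from -0.03 in Kcnq1ot1 to 0.05 in Malat1, and none had an unadjusted p under 0.05. The 95% intervals reached 0.105 to 0.221 to either side of these values, and larger PF4 effects on the 10 RNAs lay outside them. The difference of the PF4 effects between ages was likewise called for 0 genes by edgeR (0%) and by DESeq2. Before adjustment 707 genes (3.98%), 1 of them Snhg14, had p below 0.05, again under the share of 0.05.

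**Figure D3:**
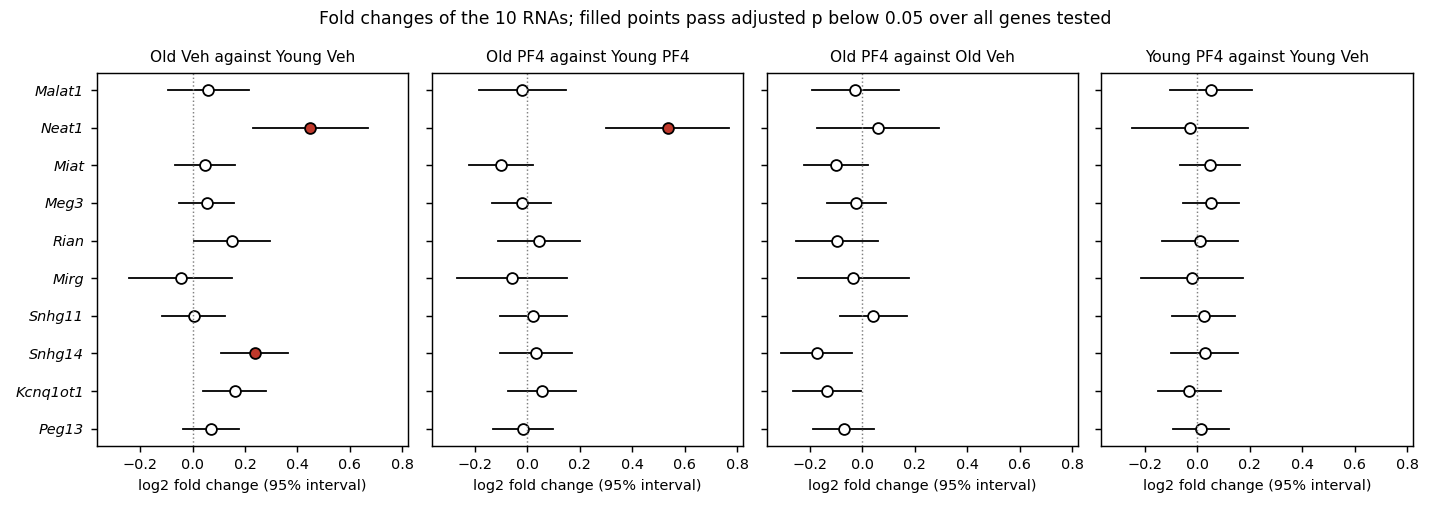
Log2 fold change (point) and 95% interval (line) of each RNA in 4 comparisons, filled where the edgeR adjusted p was below 0.05. Filled points are Neat1 at 0.45 and Snhg14 at 0.24 between Old Veh and Young Veh, and Neat1 at 0.53 between Old PF4 and Young PF4.

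Ratios of neighbouring RNAs within a library need no scaling between libraries, and were taken as log2 of (count + 0.5) with a two-sided permutation test of 100000 resamples, adjusted over 9 tests. The log2 ratio of Neat1 to Malat1 was -5.18 ± 0.291 (SD, n = 13) in Young Veh and -4.79 ± 0.306 (n = 12) in Old Veh. The difference of 0.38 had a permutation p = 0.00396 and an adjusted p = 0.0356. It did not pass without the libraries under 5000000 reads (0.28, adjusted permutation p = 0.540), nor with the regression on the length index removed (0.30, adjusted permutation p = 0.0965), nor in 17 of the 25 sets that each left out 1 library, 9 without an Old Veh library (replicates 1 to 4 and 6 to 10) and 8 without a Young Veh library (replicates 4 to 7, 9, 10, 12 and 13), where the difference was 0.34 to 0.39 and the adjusted permutation p reached 0.0844. In the PF4-treated groups the ratio was -5.25 ± 0.329 (n = 12) in Young PF4 and -4.74 ± 0.454 (n = 10) in Old PF4.

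Within the Dlk1-Dio3 domain the proportions of the 3 RNAs differed by less than the spread between libraries. The log2 ratio of Rian to Meg3 was -4.50 ± 0.156 in Young Veh, -4.55 ± 0.137 in Young PF4, -4.41 ± 0.159 in Old Veh and -4.48 ± 0.122 in Old PF4. Mirg to Meg3 was at -7.35 ± 0.226, -7.41 ± 0.172, -7.44 ± 0.258 and -7.46 ± 0.157 in the same order. None of their 6 comparisons passed, with adjusted permutation p from 0.676 to 0.866.

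None of the 7 tested neighbours in the Dlk1-Dio3 domain, 10 around Snhg14, 6 around Kcnq1ot1 and 4 around Peg13 was called in any of the 4 group comparisons. With 2.77%, 0.332%, 0.0337% and 0% of all genes called in these comparisons, a count of 0 in lists of this size is near the background. Ube3a, the ubiquitin ligase gene that Snhg14 overlaps, was at 0.08 (SE 0.0311, edgeR adjusted p = 0.185) between Old Veh and Young Veh, in the same libraries in which Snhg14 rose by 0.24. Snrpn, a splicing protein gene read from the same paternal copy as Snhg14, was at 0.04 (SE 0.0992). The 10 around Snhg14 ran from -0.68 to 0.16, with 7 of 10 positive. The 3 negative values, named here after they were seen, were Magel2 at -0.68 (SE 0.256, edgeR adjusted p = 0.154), Mkrn3 at -0.50 (SE 0.208, edgeR adjusted p = 0.208) and Atp10a at -0.37 (SE 0.112, edgeR adjusted p = 0.0535), none of them above 10.4 CPM on average. Cdkn1c, a cell cycle inhibitor silenced in cis by Kcnq1ot1 in other tissues, was at -0.77 with a large error (SE 0.393, edgeR adjusted p = 0.347). Kcnq1 itself was low, at a mean of 0.952 CPM. Dlk1, the paternal protein gene of the Meg3 domain, was at -0.06 (SE 0.189), and Trappc9, the host of Peg13, at 0.03 (SE 0.0406).

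The proteins that share nuclear bodies with Malat1 and Neat1 were mostly without a call. Of 12 nuclear speckle proteins, Srrm2 and Son, both large splicing-related scaffold proteins of the speckle, rose between Young Veh and Old Veh, by 0.18 (SE 0.0466, edgeR adjusted p = 0.0199) and 0.14 (SE 0.0394, edgeR adjusted p = 0.0407). These 2 calls of 12 stand beside 2.77% of all genes called. The dependence of these 2 calls on the libraries under 5000000 reads or on the length index was not tested. The other 10 had no call, and the median of the 12 was 0.03 beside -0.01 over all genes. In PF4-treated mice Srrm2 was at 0.11 (edgeR adjusted p = 0.565) and Son at 0.06 (edgeR adjusted p = 0.789). None of the 12 paraspeckle proteins was called with age in vehicle-treated mice, where their median was -0.01, or in PF4-treated mice, where it was 0.02. With 2.77% and 0.332% of all genes called in these comparisons, 0 of 12 is near the background. None of the 3 splicing factors that bind Miat repeats was called in any group comparison. The same held for 19 other imprinted genes and for 26 other long noncoding RNAs, whose medians between Old Veh and Young Veh were -0.03 and 0.04. The shares of all genes called in the 4 group comparisons were 2.77%, 0.332%, 0.0337% and 0%. A count of 0 in these 3 lists is near that background.

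Libraries of 1 group also varied among themselves, and Neat1 varied the most of the 10. Its SD of log2 CPM within groups was 0.29, larger than that of 65.5% of genes tested. Meg3 had the smallest at 0.13, larger than that of 17.9% of genes, and Malat1 was at 0.20. The old groups mixed ages. Replicates 1, 2 and 3 of Old Veh and Old PF4 were at 19.47 to 20.23 months and the others at 17.4 to 18.0. Neat1 deviated from its group mean by 0.25 to 0.58 log2 in those Old Veh libraries and by -0.51 to 0.05 in the others. In Old PF4 the ranges were 0.04 to 0.69 and -0.79 to 0.22. The part of age within a group was not tested. Likeness was measured as Pearson's r of log2 CPM after subtracting each group's mean, over the 47 libraries. It is a description that carries no p, since the libraries also differed in depth and in choroid plexus markers, and all genes of a library share its depth and its dissection.

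Neat1 was most like Cldn11, a tight junction gene of the myelin sheath (r = 0.85), followed by Prr18 (r = 0.834) and Phldb1 (r = 0.808). With the mean log2 CPM of 4 oligodendrocyte markers (Mbp, Mog, Mag and Mobp) its r was 0.542, with 5 endothelial markers 0.47, with 5 microglia markers 0.22, with 5 astrocyte markers -0.344 and with 10 choroid plexus markers 0.0819. Other members ran against the choroid plexus markers, with r = -0.549 in Miat, -0.466 in Malat1, -0.398 in Meg3 and -0.383 in Snhg11, and the part of choroid plexus in their values was not tested. None of the 4 oligodendrocyte markers was called between Old Veh and Young Veh, and their summed level was 3525 to 4333 CPM in Young Veh (median 4005) and 3446 to 5169 CPM in Old Veh (median 4315). In the PF4-treated groups it was 2711 to 4997 CPM in Young PF4 (median 3853) and 4008 to 4971 CPM in Old PF4 (median 4666), again with 0 of 4 called. Single markers were at 0.06 to 0.18 between Old Veh and Young Veh and at 0.14 to 0.26 between Old PF4 and Young PF4. Their mean log2 CPM was thus higher in the older groups, as Neat1 was, at 8.59 in Young Veh, 8.70 in Old Veh, 8.56 in Young PF4 and 8.78 in Old PF4. That of 5 microglia markers was 5.56, 5.74, 5.58 and 5.83 in the same order. Cldn11 itself was at -0.02 between Old Veh and Young Veh (SE 0.0878, edgeR adjusted p = 0.945) and at 0.23 between Old PF4 and Young PF4 (SE 0.0935, edgeR adjusted p = 0.466). Like Neat1, it lay above the group mean in each old library of 19.47 months or more, and on both sides of it in the other old libraries. Of 5 microglia markers, the complement gene C1qa rose with age under both treatments, by 0.28 (edgeR adjusted p = 0.0262) and 0.42 (edgeR adjusted p = 0.00255), beside 2.77% and 0.332% of all genes called. The other 4 were at 0.05 to 0.27 in vehicle-treated and 0.15 to 0.30 in PF4-treated mice without a call. Of 5 astrocyte markers, the filament gene Gfap rose in PF4-treated mice, by 0.49 (edgeR adjusted p = 0.00179), and was at 0.27 in vehicle-treated mice (edgeR adjusted p = 0.0568). The other 4 were at -0.03 to 0.05 in vehicle-treated and -0.04 to 0.07 in PF4-treated mice. None of 6 neuron, 5 endothelial and 10 choroid plexus markers was called between the ages under either treatment, though the choroid plexus markers had medians of -0.92 and -1.05. The part of oligodendrocytes, microglia or astrocytes in the rise of Neat1 was not tested. Nor was the dependence of the C1qa and Gfap calls on the libraries under 5000000 reads.

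**Figure D4:**
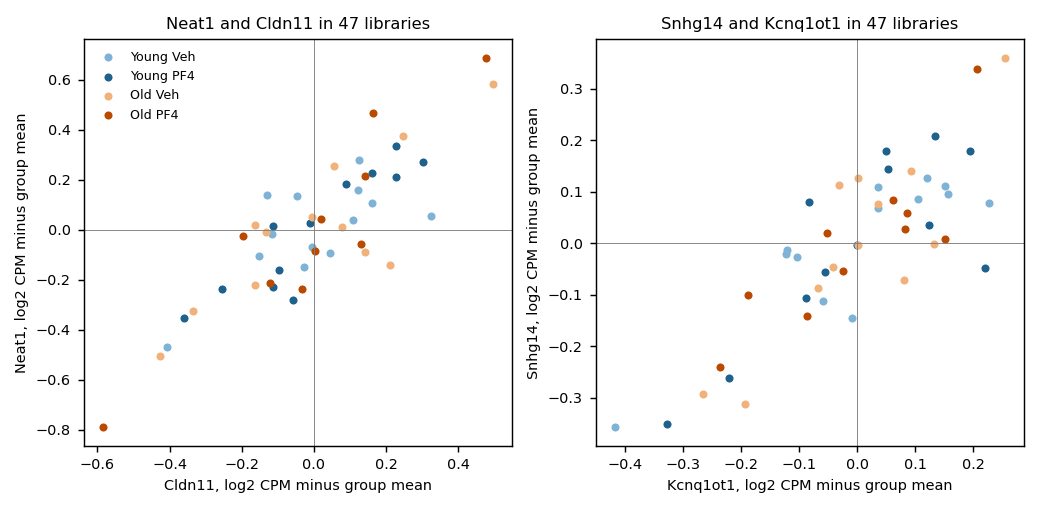
Deviation of log2 CPM from the group mean in each library, for Neat1 against Cldn11 (left) and Snhg14 against Kcnq1ot1 (right), coloured by group. Points rise together in both panels, with r of 0.85 and 0.824 over 47 libraries.

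Snhg14 and Kcnq1ot1, from separate imprinted regions of chromosome 7, were close to each other. Of all genes tested Snhg14 ranked 1st in likeness to Kcnq1ot1 and Kcnq1ot1 ranked 3rd in likeness to Snhg14, with r = 0.824, and r = 0.833 without the libraries under 5000000 reads. Rian was at r = 0.667 with Kcnq1ot1 and r = 0.647 with Snhg14. Ube3a, which shares 1803 exonic bases with Snhg14 on the other strand, was at r = 0.431 and ranked 1604th. Both members of the pair ran against the mean log2 CPM of the astrocyte markers, with r = -0.536 in Snhg14 and -0.567 in Kcnq1ot1, and -0.661 and -0.662 without the libraries under 5000000 reads. Their r with the log10 total count was -0.462 and -0.447, and the part of astrocytes or depth in the pair was not tested.

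The 3 RNAs of the Dlk1-Dio3 domain were also alike. Rian was the gene most like Mirg (r = 0.601), and Meg3 ranked 10th for Mirg (r = 0.55). For Meg3, Rian ranked 6th (r = 0.643) and Mirg 37th (r = 0.55), while Snhg11, from another chromosome, ranked 2nd (r = 0.663). For Rian, Kcnq1ot1 ranked 7th (r = 0.667) and Snhg14 14th (r = 0.647), ahead of Meg3 at 16th and Mirg at 39th. The gene most like Meg3 was Igsf9b, an adhesion molecule of inhibitory synapses (r = 0.738).

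Peg13 was most like Sv2a (r = 0.851), a synaptic vesicle protein gene, and Kif1a (r = 0.808), an axonal motor gene. Miat was most like Clcn2, a chloride channel gene (r = 0.782). Snhg11 had Lifr, the receptor for leukaemia inhibitory factor (r = 0.745), among its nearest genes, and ran against Neat1 (r = -0.411). Malat1 and Neat1, neighbours on chromosome 19, showed almost no relation (r = 0.0336). The gene most like Malat1 was Gm37376 (r = 0.94), which overlaps it.

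**Figure D5:**
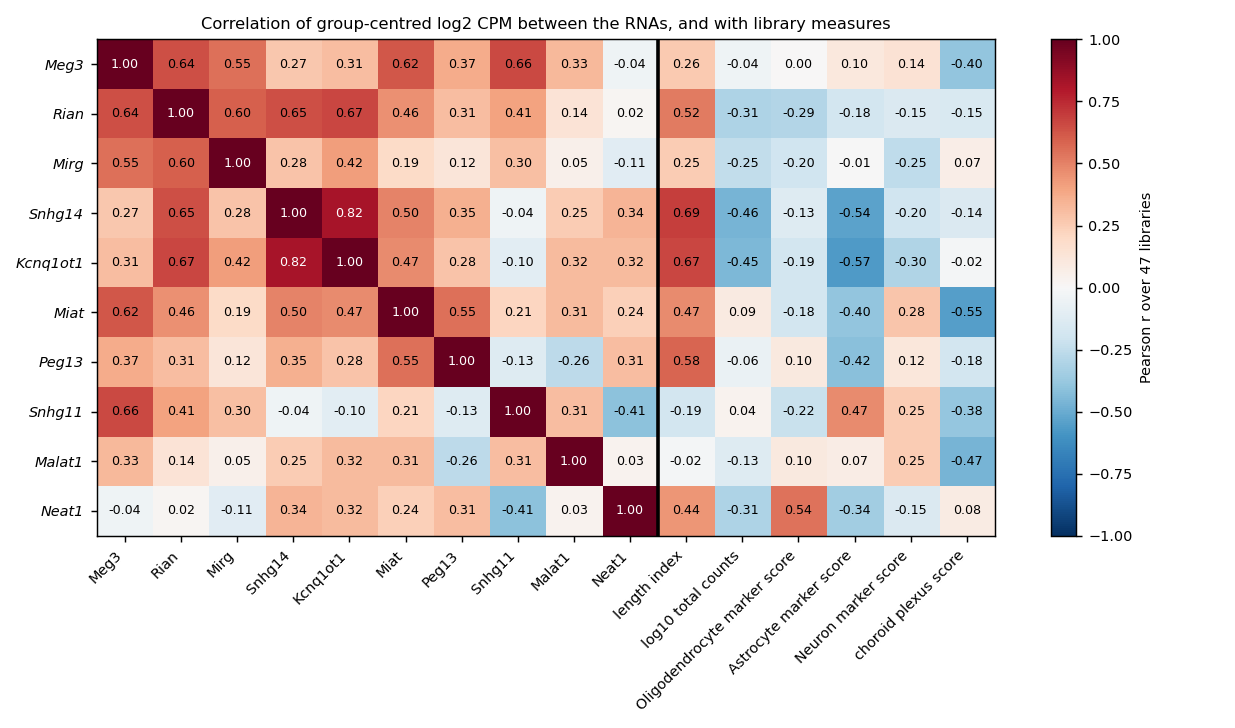
Pearson's r of group-centred log2 CPM over 47 libraries, between the 10 RNAs (left of the line) and with library measures (right of it). The pair Snhg14 and Kcnq1ot1 has the highest r at 0.824, and both stand at 0.688 and 0.671 with the length index.

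Gm37376 bears on what the count of Malat1 means. It is a gene model of 453 bases on the plus strand, wholly inside the Malat1 exon (chromosome 19, 5801941 to 5802393), and covers 6.49% of it. It received 644720 reads beside 1382607 for Malat1, or 31.8% of the reads of both. The libraries kept no strand, so reads of both cannot be told apart, and Gm37376 stood at 41.9% to 51.4% of the Malat1 count in each library. The sources do not say how reads of overlapping genes were counted, so the Malat1 count may lack these reads or already hold them. Adding them, which takes them as lacking, left the log2 difference between Old Veh and Young Veh at 0.04. Gm26906 in Meg3 and Gm26953 in Miat, also on the other strand, had 2.29% and 12.3% of their partners' counts at the median. Snhg14 shares bases with Ube3a in the same way, and Ube3a received 194362 reads beside 69159 for Snhg14, at 213.5% to 370.2% of the Snhg14 count in each library. Reads in the shared bases cannot be told apart, and no Ube3a reads were added to Snhg14.

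Part of the variation within groups went with transcript length. A length index was taken for each library by centring log2 CPM gene by gene, averaging over the 25% of tested genes with the longest transcripts (4594 bases or more) and subtracting the average over the 25% with the shortest (2006 bases or less), the 10 RNAs left out. In the edgeR fit with group, 6 of the 10 were called higher with the index, beside 20.6% of genes called higher and 42.8% called in all. Long genes tend to rise with this index by construction, and 9 of the 10 are that long, all but Mirg. Of the other 4411 genes at least as long, 38.2% were called higher, which is the nearer background for these 6. Snhg14 rose by 0.12 log2 per SD of the index (SE 0.0185, edgeR adjusted p = 1.36e-06), Kcnq1ot1 by 0.11 (SE 0.0180, edgeR adjusted p = 3.86e-06) and Neat1 by 0.13 (SE 0.0405, edgeR adjusted p = 0.00806). Rian, Miat and Peg13 were the other calls. Malat1 was at -0.01 (SE 0.0304) and Snhg11 at -0.03 (SE 0.0218).

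The index was 0.04 ± 0.0716 in Old Veh, -0.02 ± 0.119 in Young Veh, -0.02 ± 0.0785 in Old PF4 and -0.0001 ± 0.0830 in Young PF4, so its mean was highest in the group in which Snhg14 was highest. With the index as a covariate Neat1 was at 0.37 (edgeR adjusted p = 0.0236) and Snhg14 at 0.16 (edgeR adjusted p = 0.0418) between Old Veh and Young Veh, and Neat1 was at 0.55 between Old PF4 and Young PF4 (edgeR adjusted p = 0.00381).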

How the data were processed

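Hippocampal RNA from male mice was turned into unstranded Smart-Seq2 and Nextera XT libraries. Per the labels, the authors used Trim Galore 0.3.7 for trimming and STAR 2.5.3a for alignment to GRCm38, and deposited raw counts per gene for 47 libraries; their counting tool and annotation are not given in the sources used here. The study left out libraries of low coverage. Groups were taken from the sample titles.

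The counts of all 35486 genes were filtered with filterByExpr by group (17778 genes kept), scaled by TMM and fitted in 1 model of the 4 groups with edgeR 4.0.16 (quasi-likelihood test, R 4.3.3). Adjusted p is Benjamini-Hochberg over all genes tested, called below 0.05. CPM is TMM-scaled, with a prior count of 2 on the log2 scale. SE was derived from the log2 fold change and its F statistic. Exon lengths and overlaps came from GENCODE M21, which gave a gene model for 98.8% of the genes. Ratios were tested by permutation in SciPy 1.17.1.

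Genes named were the 10 RNAs, list genes that were called (at most 5 a list), 6 direct neighbours and some of the 3 genes most like each RNA, with the genes of the oligodendrocyte list. Magel2, Mkrn3, Atp10a and Gm37376's counterparts in Meg3 and Miat were named after their values were seen. The members, gene lists and tests were chosen with earlier results of these data known. One listed oligodendrocyte marker is not reported here, and its list was summed without it. The scripts were tested on simulated counts. Alternatives were the DESeq2 1.42.0 test and size factors, upper-quartile scaling, no filter, the compared groups alone, a replicate block, the length index as covariate, no libraries under 5000000 counts and leaving out each library. Adding overlapping opposite-strand genes to Malat1, Meg3 and Miat, levels per longest transcript, and a term for the 8 libraries under 5000000 counts were chosen after seeing the data. Within groups, every pair of libraries differed by more than sampling noise (chi-square per degree of freedom at least 1.95), so none was counted as a repeat. Intervals of fold changes cover the spread between libraries. The fewest reads of a member in a library were 37, for Mirg.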

Additional observations from a re-analysis of the deposited data

Results flagged for a closer look

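Malat1 in Old PF4 replicate 1 stood at 11.92 on the log2 CPM scale, the highest of the 10 Old PF4 libraries, with the next at 11.56, a gap of 0.501 of the group's range, past Dixon's 95% critical value for 10 samples. This library held 3454889 reads, under 5000000. Old PF4 was the one group small enough for this check, which was made on both ends of 13 measures (the 10 RNAs and 3 ratios), and chance flags about 1 in 20 groups. The cause was not tested.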

How the results depend on the processing

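Between Old Veh and Young Veh the number of the 10 RNAs called was 2 in edgeR, and it fell to 0 without the 8 libraries under 5000000 counts, where 176 genes were called in place of 492. It was 1 to 2 over the 25 sets that left out 1 library. Between Old PF4 and Young PF4 the number was 1, and it was 0 with the groups compared fitted alone and 0 to 1 over the 22 sets that left out 1 library. In the comparisons of PF4 with vehicle and in the difference of PF4 effects the number stayed at 0 under every alternative run. The calls over all genes also moved when 1 library was left out. They ran from 356 to 593 between Old Veh and Young Veh, 36 to 91 between Old PF4 and Young PF4, and 0 to 20 between Old PF4 and Old Veh. The 6 calls with the length index stayed 6 under its 3 alternatives. The log2 ratio of Neat1 to Malat1 in Old Veh against Young Veh fell from 0.38 to 0.28 without the libraries under 5000000 counts and to 0.30 with the regression on the length index removed (adjusted permutation p = 0.0965), and it was 0.34 to 0.44 when 1 library was left out. With the 8 libraries marked by a term, a choice made after seeing the data, the number between Old Veh and Young Veh was 1. With all libraries kept, 414 of 425 log2 differences of single members kept their direction and side of the threshold, 2 lost the call (Neat1 in PF4-treated mice with the groups fitted alone, Snhg14 with the term) and 9 that were not called changed sign. Without the 8 libraries 53 of 60 were kept, 2 lost the call (Neat1 and Snhg14 between Old Veh and Young Veh) and 5 that were not called changed sign. The depth limits Mirg most, at 37 to 310 reads a library.

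The labels do not pair same-numbered libraries of different groups. Replicates 1, 2 and 3 of both old groups were alike in age, at 19.47 to 20.23 months. The correlation of deviations between same-numbered libraries was over 0.1 in 3 of 12 pairs between Old Veh and Young Veh, 3 of 10 between Old PF4 and Young PF4, 5 of 10 between Old PF4 and Old Veh (median 0.112) and 4 of 12 between Young PF4 and Young Veh (highest 0.554). With the replicate block the numbers of members called were 2, 1, 0, 0 and 0, with Neat1 at 0.44 (edgeR adjusted p = 0.0119) and Snhg14 at 0.24 (edgeR adjusted p = 0.0322) between Old Veh and Young Veh, and the block changed no other call among the 10.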
